A study of Mus musculus with 8 samples.

Results

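Guanylate-binding proteins (GBPs, encoded by the Gbp genes) and immunity-related GTPases (IRGs, encoded by Irgm1, Irgm2, Igtp and Iigp1) are large GTPases of the interferon response. The genes described here are Gbp2, Gbp3, Gbp5, Gbp6, Gbp7, Gbp9, Irgm1, Irgm2, Igtp and Iigp1, which are 10 of the 22520 protein-coding genes in the deposited table, taken as the rows with these symbols. They were chosen by their LRP1 eKO and WT signals in these same libraries, so the difference between genotypes is given for them as a description, with no test. All 10 genes had higher signals in LRP1 eKO than in WT libraries, from 2.19-fold for Igtp to 6.52-fold for Gbp3, and for none of them did the groups overlap.

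The study sequenced mRNA from liver cells of C57BL/6 mice at postnatal day 14, labelled as liver microvesicular cells, with 4 libraries of WT and 4 of LRP1 eKO mice. WT mice were LRP1 f/f; Cdh5-CreER-/- and LRP1 eKO mice were their LRP1 f/f; Cdh5-CreER+/- littermates, so that every mouse carried the floxed Lrp1 alleles. The Cdh5 promoter drives the tamoxifen-dependent recombinase in endothelial cells (ECs), and per the study's methods microvascular ECs were taken with beads against PECAM-1. Cdh5-CreER was present in LRP1 eKO mice alone, so the effects of the transgene and of Lrp1 loss cannot be told apart. The labels do not say whether each library came from a separate mouse, and p-values below measure the spread between these libraries.

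Lrp1 checked the labels, with a mean signal of 65.5 ± 13.3 for WT against 4.41 ± 1.65 for LRP1 eKO (SD, n = 4 each). All 8 endothelial markers examined, Pecam1 and Cdh5 among them, were above 0 in every library, though Tek and Erg were below 1 throughout. The summed signal of the 8 was 21.2 to 29.3 in WT and 34.7 to 50.5 in LRP1 eKO libraries. Eng, with means of 12.4 and 24.3, added more to it than any other marker. For every endothelial marker but Eng the groups overlapped. The libraries also held signal of other cell types, with sums of 1126 to 1395 for 7 stellate cell and fibroblast markers. LRP1 eKO replicate 2 stood apart from the rest in macrophage markers, as described below.

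Both GTPase families are held at low levels in resting cells and are transcribed after interferons activate STAT factors, which bind the interferon-stimulated response element (ISRE) and the gamma-activated site (GAS) in promoters. GBPs assemble on the membranes of pathogen vacuoles and on bacteria and promote their lysis and inflammasome activation. Among IRGs, Iigp1 is an effector that coats vacuoles, while Irgm1, Irgm2 and Igtp are regulators that keep effectors inactive on the cell's own membranes.

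Promoters, covering 250 bases before to 50 bases after the transcription start, were taken from RefSeq on GRCm38.p6 and searched on both strands for the ISRE core GAAANNGAAA and the GAS core TTCNNNGAA. RefSeq promoters of 7 of the 10 genes were searched, and each of these 7 genes had an ISRE core. No promoter was searched for Gbp6, Gbp9 and Iigp1. Among all 32851 promoters, 3.44% held an ISRE core, 8.30% a GAS core and 0.454% both. The GAS core was found for 3 of the 7 genes, Gbp7, Irgm2 and Igtp. A match describes these letters in this window and is not shown here to be a site that is bound. The 30 bases around the matches are printed for Gbp genes of chromosome 3 and Irg genes of chromosome 11, with Tgtp2 for comparison, because they show the element these genes share and the 2 forms in which it occurs. Each is 5′ to 3′ on the strand of its gene, capitals mark ISRE and GAS cores, and an ISRE core on the opposite strand reads TTTCNNTTTC.
Gbp2, chr3:142620594-142620623, plus strand: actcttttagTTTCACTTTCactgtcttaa
Gbp3, chr3:142559992-142560021, plus strand: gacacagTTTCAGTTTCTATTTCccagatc
Gbp7, chr3:142530273-142530302, plus strand: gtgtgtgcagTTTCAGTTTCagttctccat
Irgm1, chr11:48871428-48871457, minus strand: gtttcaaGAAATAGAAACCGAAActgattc
Irgm2, chr11:58214897-58214926, plus strand: gccatTTCCAGGAActGAAACTGAAAgctg
Igtp, chr11:58199506-58199535, plus strand: gccatTTCTAGGAActGAAACTGAAAgctg
Tgtp2, chr11:49064269-49064298, minus strand: gccatTTCCAGGAAtcGAAACCGAAAccta

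The Gbp matches of chromosome 3 lay on the strand opposite to the gene, at 59 bases before the start for Gbp2 and 53 for Gbp7. Those of Irgm1, Irgm2 and Igtp on chromosome 11 lay on the strand of the gene. Gbp3 and Irgm1 each held 2 overlapping ISRE cores. In Irgm2 and Igtp, and in the related gene Tgtp2, a GAS core stood directly before the ISRE core, with 2 bases between them. The second RefSeq promoter of Gbp3 held neither core.

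The rows carry identifiers that limit what a symbol means. The row labelled Gbp5 has the identifier ENSMUSG00000040264, which GENCODE M21 gives to Gbp2b, and its promoter was therefore matched as Gbp2b (1 ISRE core, 0 GAS cores). The row labelled Gbp6 has ENSMUSG00000079362, a gene model on chromosome 5 (105214907 to 105293695, minus strand) that M21 names Gm43302. Of the 50-base stretches in its protein-coding transcripts, 100% also occur in transcripts of other genes, 93.0% in Gbp6 itself, so its signal is uncertain. For the other 8 genes this share ran from 0.782% for Irgm1 to 12.7% for Gbp7. In M21, Igtp (58199556 to 58207591) and Irgm2 (58199618 to 58222782) overlap on the plus strand of chromosome 11, and 11.8% of the stretches of Igtp occur in Irgm2, so reads of these 2 genes may be split between them. The RefSeq promoter matched for Irgm2 (58214727 to 58215026) lies past the end of Igtp, so the overlap depends on the gene model.

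The Gbp cluster of chromosome 3 comprised Gbp7 (142530342 to 142550149), Gbp3 (142560026 to 142573209), the row labelled Gbp5 (142594847 to 142619179) and Gbp2 (142620602 to 142638008), all on the plus strand of GRCm38. Values are quantile-normalized signals as deposited, in the order of replicates 1 to 4, and log2 fold changes compare log2(signal + 1), so that they are too small where signals are low. Folds are ratios of geometric means without a pseudocount. Signals are not compared between genes, since their unit before normalization is not stated.

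Gbp3 had signals of 2.97, 2.15, 1.92 and 2.26 in WT and 14.6, 12.2, 17.1 and 16.4 in LRP1 eKO libraries. The lowest LRP1 eKO signal was 4.10 times the highest WT signal, the widest separation among the 10 genes. The log2 fold change of Gbp3 was 2.27 (standard error 0.12), or 6.52-fold.

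Gbp2, a GBP whose protein is attached to membranes by a lipid anchor, had signals of 8.14, 7.68, 8.05 and 9.29 in WT and 22.3, 19.0, 22.2 and 21.3 in LRP1 eKO libraries. LRP1 eKO replicate 2 was the lowest of its group and was still above every WT library. The log2 fold change was 1.26 (standard error 0.071), or 2.56-fold.

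Gbp7 had signals of 0.984, 1.05, 1.18 and 0.711 in WT and 2.65, 3.04, 3.22 and 2.89 in LRP1 eKO libraries. WT replicate 4 was the lowest library, and the groups were well apart. The log2 fold change was 1.00 (standard error 0.086), just under 2-fold on that scale, and 3.05-fold without a pseudocount.

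The row labelled Gbp5 had signals of 0.241, 0.245, 0.180 and 0.238 in WT and 0.592, 0.661, 0.787 and 0.690 in LRP1 eKO libraries. Its signal was below 1 in all 8 libraries, although the groups did not overlap. Its log2 fold change was 0.46 (standard error 0.038) with the pseudocount and its ratio without it 3.03-fold.

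On chromosome 5, Gbp9 (105077630 to 105139539, minus strand) had signals of 0.938, 0.816, 0.902 and 0.862 in WT and 2.12, 2.23, 2.04 and 1.92 in LRP1 eKO libraries. The row labelled Gbp6 had 0.804, 0.723, 0.816 and 0.993 in WT and 1.73, 1.83, 1.79 and 2.00 in LRP1 eKO libraries. Every WT library was below 1 and every LRP1 eKO library above 1.5 for both genes. The log2 fold change was 0.71 (standard error 0.061) for Gbp9 and 0.63 (standard error 0.068) for Gbp6, with ratios of 2.36-fold and 2.21-fold.

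Among the regulatory IRGs of chromosome 11, Irgm1 (48861968 to 48871683, minus strand), which is required for mycobacterial control and for autophagy in macrophages, had signals of 46.7, 47.7, 46.5 and 44.2 in WT and 123, 138, 128 and 125 in LRP1 eKO libraries. The WT libraries lay close together and far below all LRP1 eKO libraries. Its log2 fold change was 1.45 (standard error 0.048), or 2.78-fold.

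Irgm2 had signals of 5.87, 5.25, 5.06 and 5.33 in WT and 14.6, 16.1, 16.1 and 15.3 in LRP1 eKO libraries, a log2 fold change of 1.37 (standard error 0.058) and a ratio of 2.89-fold. Igtp, also called Irgm3 and associated with the endoplasmic reticulum, had 5.73, 5.57, 5.75 and 6.63 in WT and 13.1, 13.2, 13.0 and 12.4 in LRP1 eKO libraries. WT replicate 4 was the highest WT library for Igtp and LRP1 eKO replicate 4 the lowest of its group, without overlap. Its log2 fold change was 1.01 (standard error 0.060), or 2.19-fold, the smallest ratio of the 10 genes.

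Iigp1 (chromosome 18, 60376027 to 60392634, plus strand), the effector also called Irga6, had signals of 0.652, 0.768, 0.910 and 0.712 in WT and 2.76, 2.73, 3.15 and 3.06 in LRP1 eKO libraries. All WT libraries were below 1, and the lowest LRP1 eKO library was 3.00 times the highest WT library. The log2 fold change was 1.16 (standard error 0.070), or 3.87-fold.

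**Figure D1:**
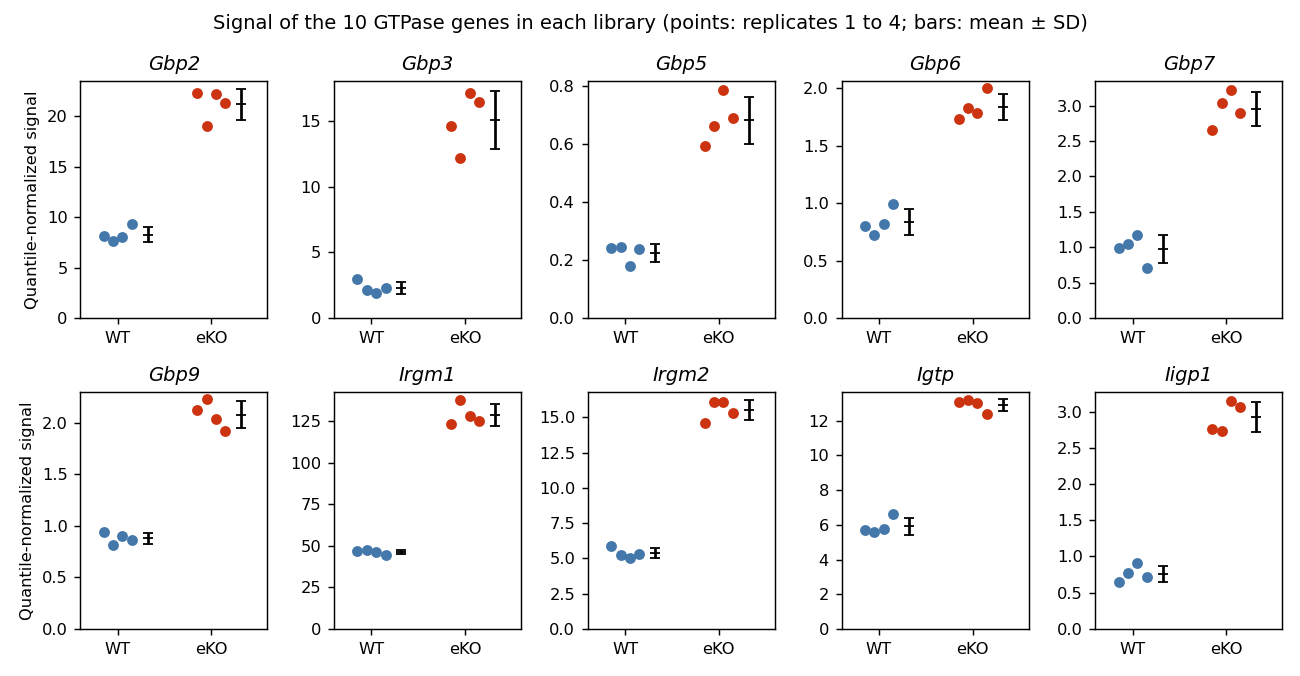
Quantile-normalized signal (vertical axis, from 0, a scale of its own for each gene) of the 10 GTPase genes in 4 WT (blue) and 4 LRP1 eKO (red) libraries, with the mean ± SD as black bars. In each panel all 4 LRP1 eKO libraries lie above all 4 WT libraries, by the widest margin for Gbp3 (lowest LRP1 eKO signal 4.10 times the highest WT signal) and the narrowest for Gbp6 (1.74 times).

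Of the 10 genes, 9 passed the filter for testing (4 or more libraries at 1 or above), and Gbp6, Gbp9 and Iigp1 did so through their LRP1 eKO libraries alone. At a limma adjusted p under 0.05 and at least 2-fold, 6 of them (Gbp2, Gbp3, Irgm1, Irgm2, Igtp and Iigp1) were past the threshold in the higher direction, where 0.869% of the 11391 genes tested were and 0.790% were past it in the lower direction. All 9 were past the adjusted p alone (19.0% of all genes tested), and all 10 had no overlap with LRP1 eKO higher (20.0% of all genes tested). These counts use the values on which the genes were chosen, and nothing is read from them. The median log2 fold change of the 10 genes was 1.09, and that of all genes tested was -0.0095.

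Ranked by the log2 ratio without a pseudocount, Gbp3 came first with 2.70 (standard error 0.17), followed by Iigp1 with 1.95 (standard error 0.11). The gaps from Gbp3 to Iigp1 (0.75) and from Iigp1 to Gbp7 (0.34) were the 2 of 9 gaps between neighbors in this order that were above the sum of both standard errors. The remaining 8 genes ran from 1.61 for Gbp7 to 1.13 for Igtp, with no gap between neighbors above the sum of their errors. By cluster, the ratio ran from 2.56-fold to 6.52-fold for the 4 Gbp genes of chromosome 3, from 2.21-fold to 2.36-fold for the pair of chromosome 5 and from 2.19-fold to 2.89-fold for the 3 Irg genes of chromosome 11.

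The libraries of a group varied little for these genes on the scale of log2(signal + 1), which narrows the spread of low signals. The SD on that scale had a median of 0.0886 over the 10 genes in WT and 0.0708 in LRP1 eKO libraries. Over all genes tested it was 0.103 and 0.0797. The mean WT signal was below 1 for 5 of the 10 genes, where this narrowing is largest. The GTPase genes did not peak together in a single library. LRP1 eKO replicate 3 was the highest of its group for 5 of the 10 genes and LRP1 eKO replicate 1 the lowest for 5, while in WT each library was the highest for 2 or 3 genes.

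Other Gbp and Irg genes were taken from a list that did not include the 10 genes, of which 15 were in the table, 7 were tested and 4 were upregulated at a limma adjusted p under 0.05 and at least 2-fold. Of the 7, 5 were higher by the adjusted p alone and 0 were lower (22.2% of all genes tested were lower by it). The 4 upregulated genes lie near Irgm1 on chromosome 11, in pairs that share sequence. Tgtp2, an effector IRG whose name stands for T cell-specific GTPase, had 2.15, 2.48, 2.07 and 2.56 in WT libraries. In LRP1 eKO libraries it had 10.4, 7.73, 10.1 and 10.8, a log2 fold change of 1.69 (standard error 0.099, limma adjusted p = 2.0e-06). Tgtp1 rose from 4.14 ± 0.450 to 11.3 ± 0.380 (mean ± SD over 4 libraries), or by 1.26 on the log2 scale (standard error 0.070, limma adjusted p = 1.5e-06). The groups overlapped for neither gene. Tgtp1 shares 81.2% of its 50-base stretches with other transcripts and Tgtp2 90.6%, mostly with each other, so how reads were divided between them is uncertain.

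The pair 9930111J21Rik1 and 9930111J21Rik2 rose by log2 fold changes of 1.56 and 1.36 (limma adjusted p = 2.9e-04 and 2.6e-04), with 82.9% and 59.2% of stretches shared. WT replicate 4 had the lowest signal for both. The remaining tested genes were Gm5431, which passed the filter through its LRP1 eKO libraries alone (log2 fold change 0.67, limma adjusted p = 6.3e-04), and Ifi47 and Irgq, with log2 fold changes of -0.14 and 0.00 (limma adjusted p = 0.072 and 0.98). Ifi47 (Irgd) is an interferon-induced IRG, whereas Irgq is a relative that is not interferon-induced.

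Ifi47, singled out after its values were seen, lies in the same cluster as Tgtp2 (chromosome 11, 49076587 to 49096974, plus strand). Its signals were 29.3, 28.0, 27.0 and 25.8 in WT and 26.8, 24.1, 25.0 and 23.5 in LRP1 eKO libraries, and the groups overlapped. The difference in log2(signal + 1) from Ifi47 changed between genotypes by 1.40 (standard error 0.088) for Tgtp1 and by 1.83 (standard error 0.12) for Tgtp2. These genes were compared because of their values, so no test is given for the difference. The RefSeq promoter of Ifi47 held neither core, and those of Tgtp1 and Tgtp2 held both. Of 9 other Gbp and Irg genes with a RefSeq promoter outside chromosome 18, 5 held an ISRE core and 4 a GAS core. The 9930111J21Rik2 promoter, with no ISRE core, belonged to an upregulated gene.

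Below the filter, Gm4951, from the same cluster of chromosome 18 as Iigp1, had 0.0988, 0.108, 0.117 and 0.0792 in WT and 0.620, 0.770, 0.770 and 0.797 in LRP1 eKO libraries. The groups did not overlap, and the ratio was 7.37-fold. Fitted without the filter, its limma adjusted p was 2.1e-05, with a log2 fold change of 0.66. F830016B08Rik, from the same cluster, had a mean of 0.0367 in WT, where 1 library was at 0, and 0.365 in LRP1 eKO libraries (limma adjusted p = 1.1e-04 without the filter). Gbp4, Gbp10 and Gm12185 were higher without overlap as well, at means of at most 0.420, while Gbp8 and Irgc1 overlapped. The row labelled Gbp1 was listed at 0 in all 8 libraries.

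**Figure D2:**
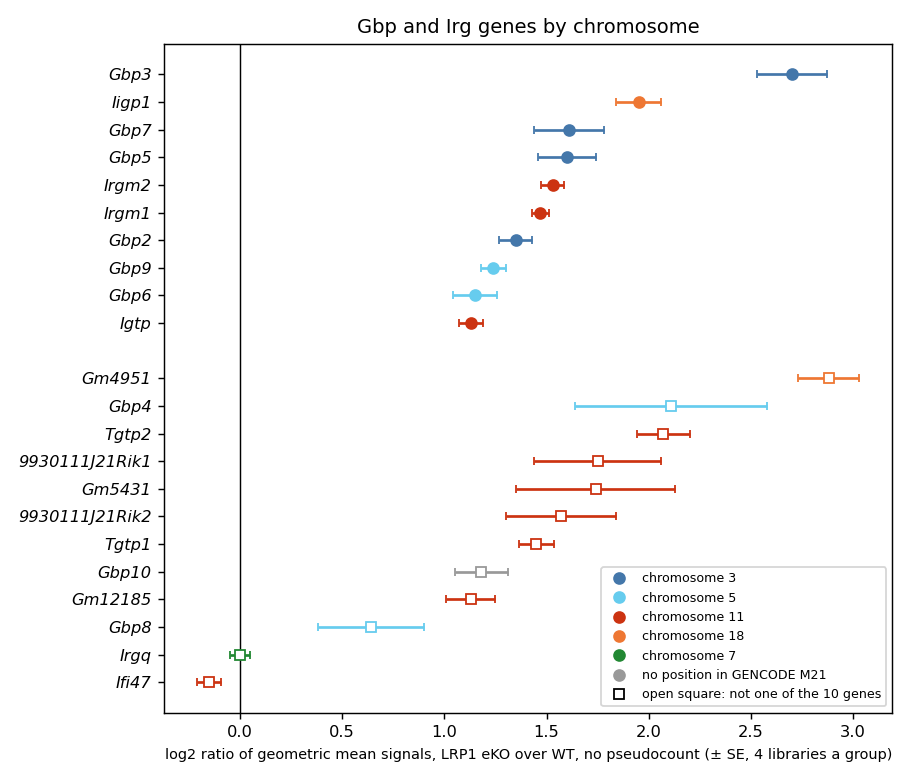
Log2 ratio of geometric mean signals, LRP1 eKO over WT, without a pseudocount, for the 10 GTPase genes (filled circles) and other Gbp and Irg genes with a signal above 0 in every library (open squares), with bars for ± SE (n = 4 each) and colors for chromosomes. The 10 genes lie between 1.13 (Igtp) and 2.70 (Gbp3), while Irgq and Ifi47 lie at 0.00 and -0.15.

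Genes around the clusters were examined for a change that followed position. Of 74 genes of the table within 500 kb of the 10 genes, 36 were tested, and the 4 that were called were Tgtp1, Tgtp2, 9930111J21Rik1 and 9930111J21Rik2. Among the 63 neighbors that were not on the lists of Gbp and Irg genes, 30 were tested and 0 passed both thresholds. By the limma adjusted p alone 4 were higher and 8 lower (19.0% and 22.2% of all genes tested). An unadjusted p under 0.05 was found for 15. Their median log2 fold change was -0.01, with a range from -0.55 to 0.53.

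**Figure D3:**
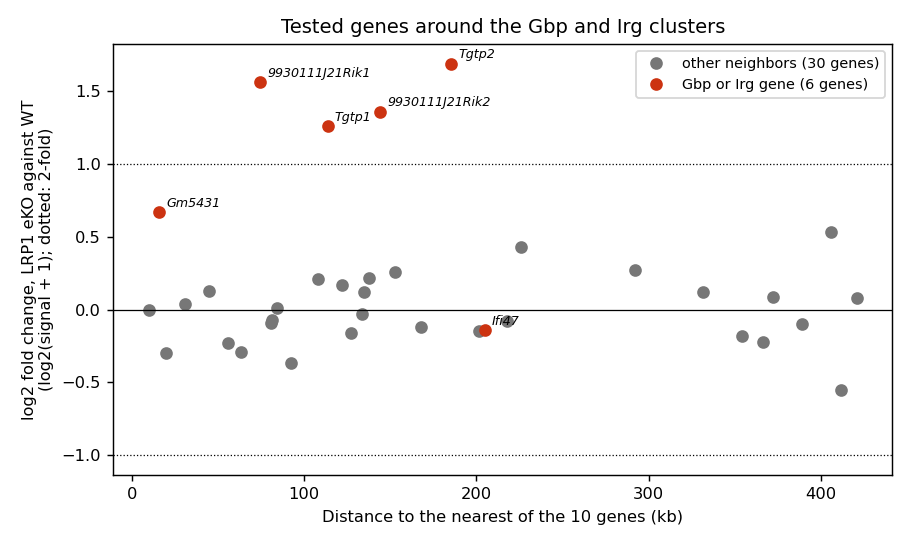
Log2 fold change of log2(signal + 1), LRP1 eKO against WT, of the 36 tested genes within 500 kb of the 10 GTPase genes, by distance to the nearest of them in kb. The 30 neighbors outside the families (gray) lie between -0.55 and 0.53, and 5 of the 6 Gbp or Irg genes (red) lie above them, with Ifi47 at -0.14.

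Mx and giant GTPases are further families of interferon-induced GTPases. Of 4 genes of the Mx and giant GTPase list in the table, 3 were tested and all 3 rose. Mx2, a dynamin-like antiviral GTPase, had 0.235, 0.0925, 0.0730 and 0.126 in WT and 1.23, 1.40, 1.01 and 1.55 in LRP1 eKO libraries, or a change of 1.02 (limma adjusted p = 2.2e-05). Gvin1 rose by 1.99 (limma adjusted p = 5.1e-07) and Gm4070 by 2.13 (limma adjusted p = 3.7e-07), and they share 99.2% and 98.2% of their stretches with other transcripts, so they are not independent measurements. Mx2 passed the filter through its LRP1 eKO libraries alone, and Mx1 was below it, with means of 0.0864 and 0.369.

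Constitutive dynamin-related GTPases, which remodel membranes without interferon, served as relatives outside the response. Of 13 tested, 0 passed both thresholds, while 6 were higher and 1 lower by the limma adjusted p alone. Over all genes tested, 19.0% were higher and 22.2% lower by it, so this list leaned toward higher signals. For 9 of the 13, the unadjusted p was under 0.05. Ehd1 (log2 fold change 0.36, limma adjusted p = 0.0021) and Dnm2 (0.29, limma adjusted p = 0.0028), which act in endocytic recycling and vesicle scission, were among the higher ones. Ehd3, an endosomal recycling GTPase, fell from 29.1 to 15.2 (log2 fold change -0.89, limma adjusted p = 7.9e-07).

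Of the list from interferons to STATs and interferon regulatory factors, 17 genes were in the table and 14 were tested. Past both thresholds was Stat2, while 6 were higher and 3 lower by the limma adjusted p alone (19.0% and 22.2% of all genes tested). Ifng was listed at 0 in all 8 libraries, and Ifnb1 was at 0 in 6 libraries and at 0.0405 and 0.0465 in LRP1 eKO replicates 2 and 4. Stat2 and Irf9 belong to the complex that binds the ISRE. Stat2 rose from 9.41, 9.18, 8.92 and 9.16 to 22.3, 24.3, 23.3 and 22.6, or by 1.25 on the log2 scale (limma adjusted p = 1.1e-07). Irf9 rose by 0.99 (limma adjusted p = 1.9e-06). The groups overlapped for neither gene.

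Other members of that list differed less. Irf1, a transcription factor that acts on Gbp promoters, fell by 0.25 (log2, limma adjusted p = 0.014), and the feedback inhibitors Socs3 and Ptpn2 fell by 0.53 (limma adjusted p = 0.0047) and 0.26 (limma adjusted p = 0.018). Jak1, a kinase of interferon receptors, rose by 0.37 (limma adjusted p = 8.7e-04). Of the 4 receptor subunits, Ifngr2 rose by 0.18 (limma adjusted p = 0.037), and Ifngr1, Ifnar1 and Ifnar2 had log2 fold changes of 0.12, 0.03 and -0.21 and did not pass the test.

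Partners of GBPs and IRGs were given by 4 further lists. The autophagy conjugation system, which places IRGs and GBPs on vacuoles, had 0 of 16 tested genes past both thresholds. By the limma adjusted p alone 5 were higher and 4 lower (19.0% and 22.2% of all genes tested). Together these were as many as had an unadjusted p under 0.05. Sqstm1, an autophagy receptor, rose by 0.29 (limma adjusted p = 0.0013), whereas Gabarapl1 and Map1lc3a, ubiquitin-like proteins of autophagosomes, fell by 0.25 (limma adjusted p = 0.0023) and 0.30 (limma adjusted p = 0.0029). In the inflammasome and pyroptosis list 2 genes were higher and 2 lower by the limma adjusted p alone (19.0% and 22.2% of all genes tested). Past both thresholds was 1 of its 9 tested genes. This was Zbp1, a nucleic acid sensor, with 0.347, 0.305, 0.508 and 0.729 in WT and 10.6, 5.18, 8.13 and 7.19 in LRP1 eKO libraries (log2 fold change 2.55, limma adjusted p = 4.8e-06). It passed the filter through its LRP1 eKO libraries alone. In the same list, the adaptor Pycard was higher (0.20, limma adjusted p = 0.025), Il18 (-0.60, limma adjusted p = 8.7e-05) and Gsdme (-0.44, limma adjusted p = 0.0011) were lower, and Casp1, Casp4 and Gsdmd did not pass the test (0.04, 0.18 and -0.01).

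Prenylation enzymes attach the lipid anchor of some GBPs. Of 8 tested, 0 passed both thresholds. The limma adjusted p alone was passed by 4, of which 3 were higher and 1 lower (19.0% and 22.2% of all genes tested). For 5 of the 8, the unadjusted p was under 0.05. Pggt1b (0.36, limma adjusted p = 0.022) and Icmt (0.18, limma adjusted p = 0.018) were higher and Fnta (-0.20, limma adjusted p = 0.018) lower. The phagocyte oxidase and nitric oxide synthase list, a set of macrophage effectors, had 3 tested genes, 0 past both thresholds and all 3 with an unadjusted p under 0.05 in limma. The log2 fold change was 0.96 for Cybb (limma adjusted p = 0.075) and 0.93 for Ncf1 (limma adjusted p = 0.089), and the groups overlapped for both. Without LRP1 eKO replicate 2, Cybb (1.38, limma adjusted p = 0.0019) and Ncf1 (1.41, limma adjusted p = 1.8e-04) passed both thresholds.

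**Figure D4:**
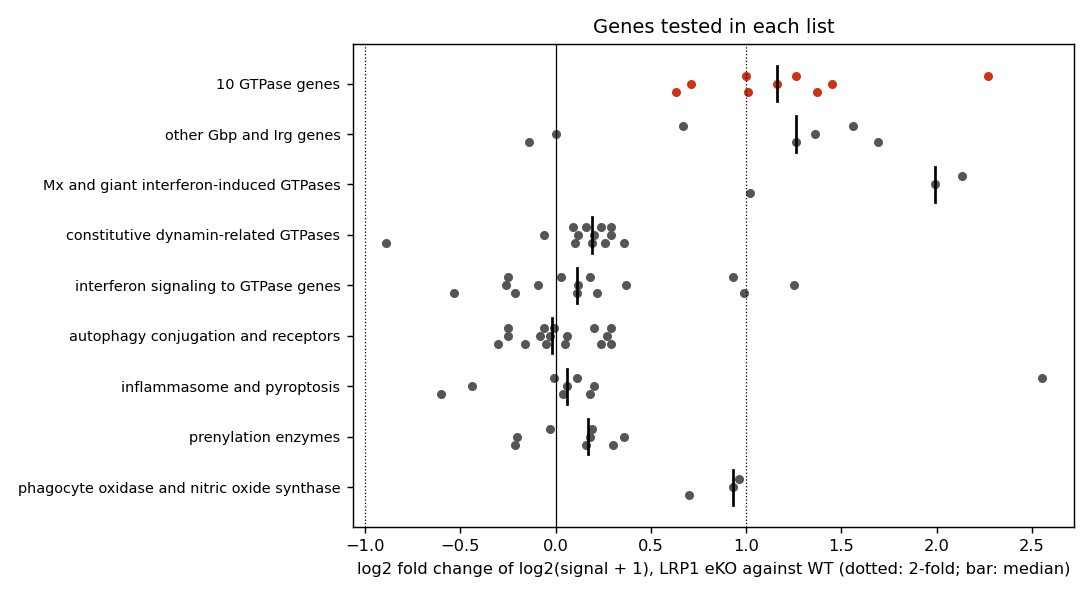
Log2 fold change of log2(signal + 1), LRP1 eKO against WT, of each tested gene (points) in the 10 GTPase genes and 8 other lists, with black bars for medians and dotted lines at 2-fold. The median was 1.16 for the 9 tested of the 10 GTPase genes, 0.19 for constitutive dynamin-related GTPases and -0.02 for the autophagy list.

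Macrophages can express GBPs and IRGs, and macrophage and Kupffer cell markers varied between libraries more than the GTPase genes did. The 13 markers, none at 0 in all libraries, summed to 187, 204, 219 and 111 in WT and to 717, 52.6, 656 and 385 in LRP1 eKO libraries. The Kupffer cell marker Clec4f was at 0 in every WT library and at 0.124 to 0.826 in LRP1 eKO libraries. LRP1 eKO replicate 2 had the lowest sum of all 8 libraries, 0.0898 of the mean of the other 3 LRP1 eKO libraries. In that library each of the 10 GTPase genes was at 0.760 to 1.10 of the mean of the other 3, with a median of 1.01. With the mean log2 signal of these markers as a covariate, the log2 fold changes of the 10 genes ran from 0.45 for Gbp5 to 2.16 for Gbp3.

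Sums of other marker lists are given for comparison. The sum of 6 hepatocyte markers was 61.4 to 89.5 in WT and 20.5 to 27.9 in LRP1 eKO libraries, and that of 4 skeletal muscle markers 16.2 to 29.5 and 2.68 to 3.28. The sum of 7 sinusoidal endothelial markers was 7.41 to 11.2 in WT and 7.93 to 31.6 in LRP1 eKO libraries, the lowest of the latter being replicate 2. T and NK cell markers summed to at most 0.104 in any library, with 3 of 8 at 0 in all. In bulk RNA, fewer cells of a type and less RNA per cell cannot be told apart. The part of these markers in the GTPase values was not tested, and the fit with the macrophage covariate is given as a description.

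**Figure D5:**
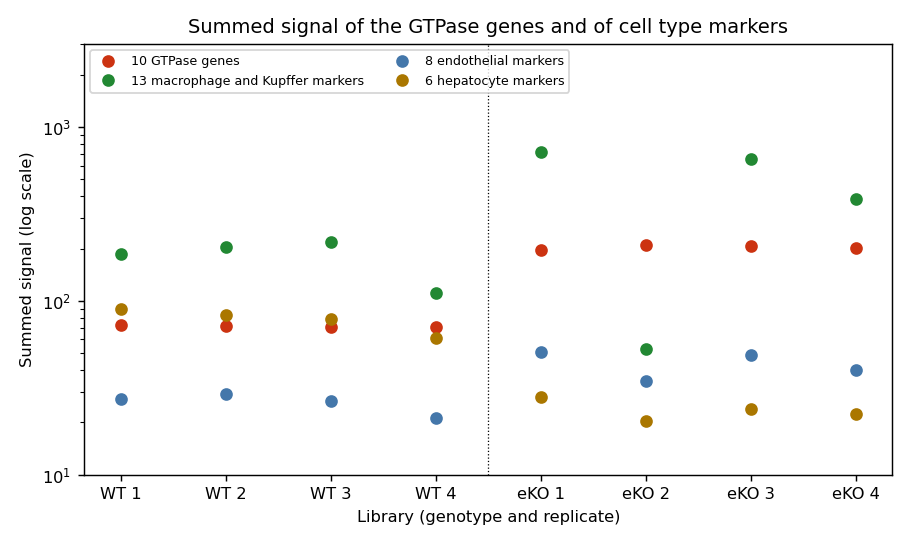
Summed quantile-normalized signal (log axis) in each of the 8 libraries for the 10 GTPase genes, 13 macrophage and Kupffer cell markers, 8 endothelial markers and 6 hepatocyte markers. The GTPase sum, most of it from Irgm1, is 71.2 to 73.0 in WT and 197 to 209 in LRP1 eKO libraries, including LRP1 eKO replicate 2, where the macrophage sum is 52.6.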

How the data were processed

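The mRNA of liver cells was sequenced in 4 WT and 4 LRP1 eKO libraries, which were assigned to genotype and replicate by the sample labels. In the table the authors deposited, values are quantile-normalized signal, and it lists 22520 coding genes with 1 column per library, and 0 columns had no sample. The submitters' processing notes name TopHat2, Cufflinks and mm10, whereas the paper's methods name trimGalore, STAR and featureCounts, and neither describes this table. The unit before normalization is not given in the sources used here. Library totals were fixed by the normalization (484445 to 485947), so depth is unknown and precision rests on the 4 libraries of each group. A global shift between genotypes would be removed by quantile normalization.

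From the deposited signal, log2(signal + 1) was fitted by genotype alone with limma 3.58.1 (R 4.3.3) and its mean-variance trend, and p-values were adjusted by Benjamini-Hochberg over the 11391 genes at 1 or above in 4 or more libraries. The threshold was an adjusted p under 0.05 and at least 2-fold. The fit was tested on simulated data of 11391 genes, where it recovered 199 of 200 genes given a log2 change of 2 and called 0 others. The 200 were drawn from genes of higher mean signal, so recovery at low signals or of smaller changes was not tested. The 10 genes and all lists were chosen with earlier results of these data known. Named genes were all 10 and, from each other list, called genes and the 3 with the smallest adjusted p. Further genes were named after their values were seen, and some genes of the lists are counted but not reported here. Positions and transcripts came from GENCODE M21 (21740 of 22520 identifiers matched) and promoters from RefSeq. Signals of Gbp11, Gm12250, Irf8, Map1lc3b and Cyba, and protein sequences, were not analysed here. The alternatives tried were a pseudocount of 0.1 or 5, a mean signal of at least 5 or no filter, limma without trend or with robust moderation, centring on a trimmed mean (30% removed at each end), a replicate block, a macrophage covariate, the adjusted p alone, and leaving out each library. Matplotlib 3.10.9 and Python 3.11.15 made the figures.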

Additional observations from a re-analysis of the deposited data

Results flagged for a closer look

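For 74 groups of 4 libraries, the gap of the highest or lowest library to its nearest neighbor was divided by the range of the group. The share was above Dixon's 95% critical value in 7 groups, where chance gives 3.70, about 1 in 20. Among the 10 GTPase genes, the row labelled Gbp5 had WT replicate 3 below the rest of its group (0.897 of the range), and Igtp had WT replicate 4 above it (0.832). Among other genes, WT replicate 4 stood apart for Map1lc3a (highest, 0.978), Icmt (lowest, 0.887) and Gvin1 (lowest, 0.833). LRP1 eKO replicate 2 was apart for Sqstm1 (highest, 0.879) and LRP1 eKO replicate 1 for Il18 (lowest, 0.841). None of these libraries brought the groups of its gene to overlap.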

How the results depend on the processing

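No value past its threshold changed direction under any alternative run, and the log2 fold changes of the 10 GTPase genes depended most on the pseudocount. Their median, 1.09, was 1.41 with a pseudocount of 0.1 and 0.59 with 5. With 5, the number past both thresholds was 2 of the 10 genes, 2 of the other Gbp and Irg genes, 1 of the Mx and giant GTPases, 0 of the interferon signaling list and 2 of the genes within 500 kb, and with 0.1 it was 9 of the 10 genes, 5 of the other Gbp and Irg genes and 2 for interferon signaling. Over all genes, 40 were higher and 26 lower with 5, and 149 and 166 with 0.1. By the adjusted p alone, 7 constitutive dynamin-related genes, 9 interferon signaling genes, 9 autophagy genes, 4 inflammasome genes, 4 prenylation enzymes, 1 oxidase gene and 17 genes within 500 kb passed. Over all genes tested, 19.0% were higher and 22.2% lower by it. A minimum mean signal of 5 left 63 genes higher and 63 lower, 5 of the 10 genes and 0 inflammasome genes. With 1 library left out, the count was 2 to 3 for the Mx and giant GTPases (2 without WT replicate 3, when Mx2 was at 0.99, or without any single LRP1 eKO replicate, when Mx2 did not pass the filter), 1 to 2 for interferon signaling (2, with Irf9 at 1.01 to 1.03, without WT replicate 1, WT replicate 4, LRP1 eKO replicate 1 or LRP1 eKO replicate 2), 0 to 1 for the inflammasome list (0 without any single LRP1 eKO replicate, when Zbp1 had 3 libraries at or above 1 and did not pass the filter) and 0 to 2 for the oxidase list (2 without LRP1 eKO replicate 2). Without LRP1 eKO replicate 2, 163 genes were higher and 83 lower over all genes. With 1 library left out, 5 to 7 of the 10 GTPase genes were past both thresholds (5 without LRP1 eKO replicate 2 or 3, 7 without WT replicate 1 or 3). Gbp7 (0.93 to 1.05) and Igtp (0.99 to 1.06) lay on both sides of 2-fold in these fits, Gbp6, Gbp9 and Iigp1 had too few libraries for the filter when an LRP1 eKO library was left out, and Gbp3 ran from 2.21 to 2.36.

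The labels do not say whether same-numbered libraries were paired. The correlations of deviations between same-numbered libraries were -0.0856, -0.130, 0.178 and 0.0378. Between different-numbered libraries they ran from -0.264 to 0.212, so these values cannot settle it. With the replicate number as a block, 102 genes were higher and 90 lower, the median of the 10 GTPase genes stayed at 1.09, and Pggt1b had a limma adjusted p of 0.052. Pggt1b also missed the threshold with the macrophage covariate (0.058) and without LRP1 eKO replicate 4 (0.064), as did Fnta with that covariate (0.063). Ifi47 passed it without WT replicate 4 (0.028) or LRP1 eKO replicate 1 (0.043). Genes with a mean WT signal below 1, which are 5 of the 10 (Gbp5, Gbp6, Gbp7, Gbp9 and Iigp1), are limited most by the unknown depth.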
